A study of Mus with 15 samples.

Results

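The genes described here are the hair keratins, the inner root sheath keratins and the keratin-associated proteins (Krtap genes) of mouse skin. They were taken from the gene table by name and biotype: protein-coding models named Krtap or Krt25 to Krt28, Krt31 to Krt36, Krt71 to Krt75 or Krt81 to Krt87, with at least 10 counts in at least 2 libraries. Of 55657 gene models, 78 protein-coding models carried such a name and 70 met the count minimum, 21 keratins and 49 Krtap genes. None of the 78 was named Krt85, so that hair keratin is not covered here. Poly-A RNA was sequenced in 15 libraries. There were 3 groups of 5 libraries: uninjured skin with a sham label, called normal skin below, and wounds of the same kind of healthy animal, called healthy wound, were set beside wounds of type I diabetic mice, called diabetic wound. The labels name no strain, age, body site, time after wounding or means of making the mice diabetic. Uninjured diabetic skin was not analysed here, so diabetes was compared in wounds alone. The labels do not tie libraries to separate animals; a p-value therefore reflects only how much these samples vary, which may be technical.

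A hair follicle grows in cycles, and in the growing phase its bulb makes concentric layers: the companion layer, the inner root sheath that guides the shaft, and the cuticle, cortex and medulla of the shaft itself. The inner root sheath uses its own keratins, type I Krt25 to Krt28 and type II Krt71 to Krt73, together with trichohyalin. Shaft cells switch on hair keratins, with Krt35 beginning low in the bulb near the matrix and most cortex keratins higher up. Krtap genes follow in the upper shaft and encode small proteins, rich in cysteine or in glycine and tyrosine, that crosslink and embed the keratin filaments. A resting follicle makes little of any of these transcripts.

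Library totals ran from 15.7 M to 17.8 M counts, so 3 counts in a library stood for 0.169 to 0.191 CPM, the count scaled to the library total. The skin markers Krt5, Krt14, Krt10, Col1a1 and Dcn had counts in every library. Their summed level ranged over 22400 to 38000 CPM in normal skin. It ranged over 20400 to 48500 CPM for healthy wound, and over 3480 to 23200 CPM for diabetic wound, where Col1a1, the main fibrillar collagen gene, had log2 fold changes of -2.81 ± 0.74 and -3.08 ± 0.74 against the other groups (SE; adjusted p = 0.0184 and 0.0265, edgeR, described below). Diabetic wound replicates 4 and 5 stood apart, with 496 and 1140 CPM over 7 markers of the epidermis between follicles, against 7400 to 12900 CPM in the other diabetic libraries. In bulk tissue, fewer cells of a type and less RNA per cell cannot be told apart.

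The summed level of the 70 genes differed among libraries of the same group, most in healthy wound, where it ranged over more than 3 orders of magnitude. Their summed level in normal skin replicates 1 to 5 was 18.4, 49.8, 1710, 804 and 5350 CPM. In healthy wound replicates 1 to 5 it was 15.9, 13300, 11.8, 1560 and 408 CPM, and in diabetic wound 23.9, 13.8, 10.3, 1.86 and 11.4 CPM. Normal skin 3 to 5 and healthy wound 2, 4 and 5 were the high libraries, while normal skin 1 and 2, healthy wound 1 and 3 and every diabetic library were low. All 70 genes reached 10 counts in normal skin 3 and in healthy wound 2. In healthy wound 2 they made up 1.33% of all counts. In diabetic wound 7, 5, 4, 2 and 1 of the 70 genes reached 10 counts.

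**Figure D1:**
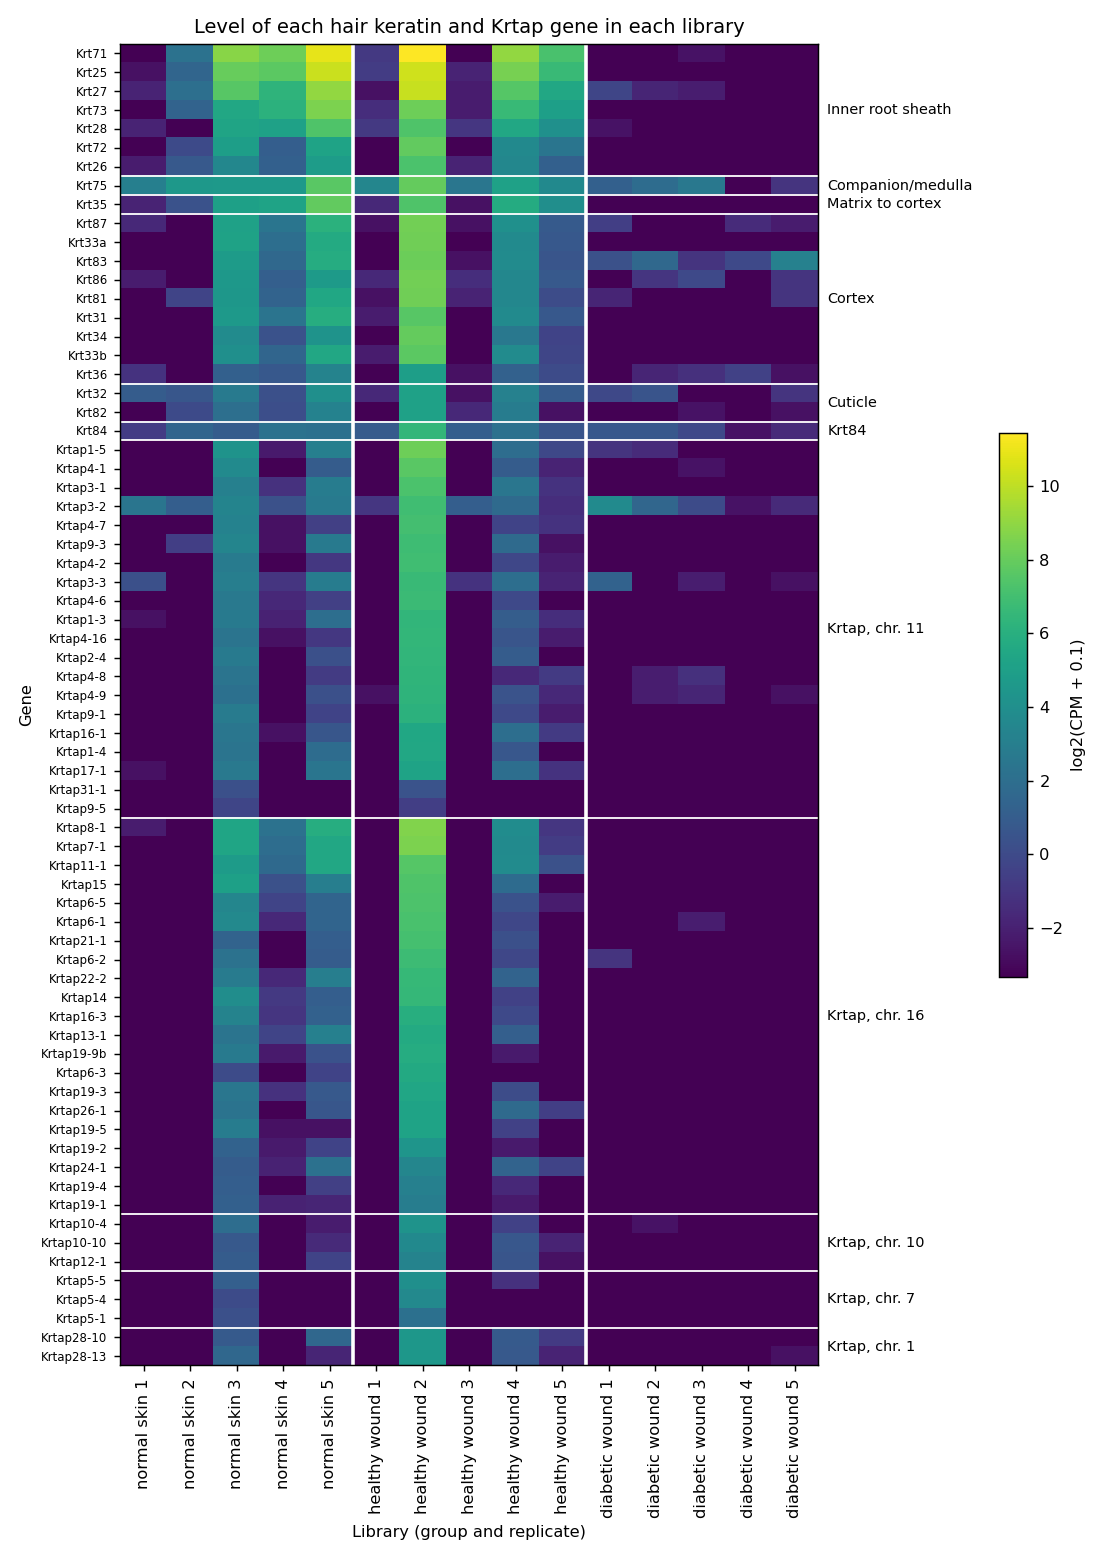
Heat map of log2(CPM + 0.1) for each of the 70 genes (rows, by layer and then by Krtap chromosome) in each of the 15 libraries (columns, by group and replicate). Healthy wound 2 and normal skin 3 have counts in all rows, with some rows dim, such as Krtap9-5. Normal skin 5 and healthy wound 4 are bright mainly in the keratin rows. The diabetic columns are dark except in a few rows such as Krt75, Krt83, Krt84 and Krtap3-2.

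**Figure D2:**
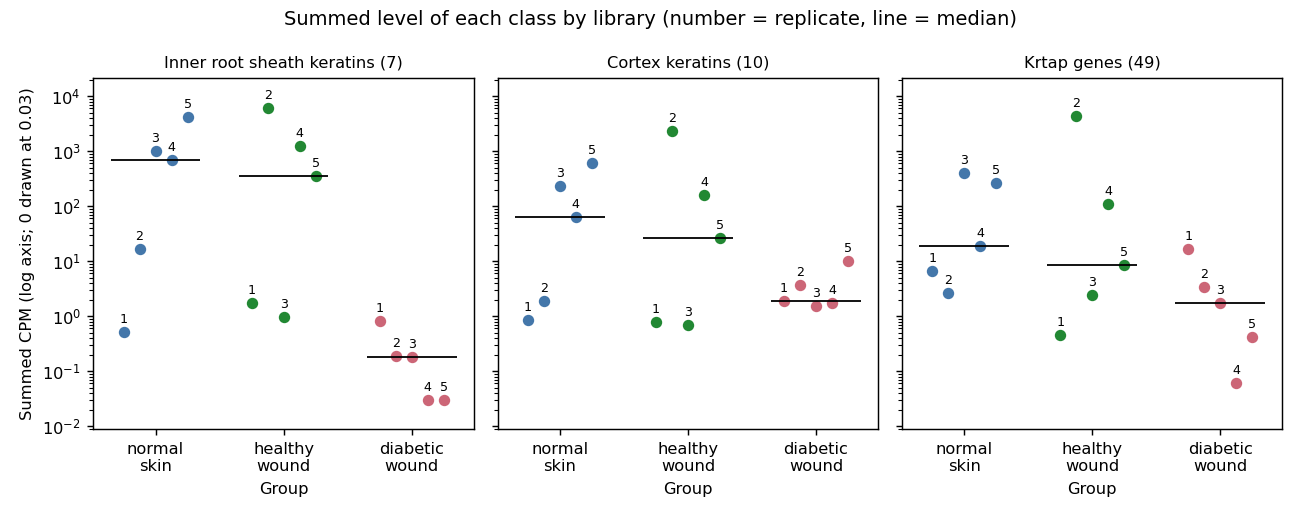
Summed CPM of the 7 inner root sheath keratins, the 10 cortex keratins (Krt35 among them) and the 49 Krtap genes in each library. Axes are log, points are numbered by replicate, lines are at group medians and 0 is drawn at 0.03. Normal skin and healthy wound spread widely on the log axis in every panel, and the diabetic inner root sheath points lie between 0 and 0.804 CPM.

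Most inner root sheath keratins fell in diabetic wound. Of the 7, all of which were tested, 5 were called lower than in normal skin (Krt71, Krt25, Krt27, Krt73 and Krt28) and 6 lower than in healthy wound (those 5 and Krt26), by the edgeR quasi-likelihood test at a Benjamini-Hochberg adjusted p under 0.05. None of these calls was made by limma-voom, or by edgeR without diabetic wound 4 and 5. None of the 7 was called in healthy wound against normal skin, where their adjusted p ran from 0.649 to 0.996 and 1.13% of all genes tested were called (0.777% higher and 0.35% lower). Both diabetic comparisons use the same diabetic libraries, and the group means are therefore given side by side and not set against each other. Of all 17122 genes tested, 19.1% were called in diabetic wound against normal skin (8.44% lower and 10.7% higher) and 9.15% against healthy wound (4.02% lower and 5.13% higher).

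Krt71 (ENSMUSG00000051879, chromosome 15, 101733949 to 101743109 in the table's coordinates, of unstated build) is the main type II keratin of the inner root sheath. Its level was 0, 4.72, 447, 288 and 1890 CPM in normal skin 1 to 5 and 0.457, 2800, 0, 537 and 149 CPM in healthy wound 1 to 5. All 5 diabetic libraries together held 1 count, in replicate 3. The high libraries were the same 6 as above, and the groups overlapped at 0 in both comparisons. The group mean was 42100-fold higher in normal skin than in diabetic wound (95% counting interval 7560 to 1660000, adjusted p = 0.0123, edgeR) and 56500-fold higher in healthy wound (10100 to 2230000, adjusted p = 0.0238). Against normal skin the call held in all 15 fits that left out 1 library; against healthy wound it was lost without healthy wound 5, diabetic wound 2 or diabetic wound 5.

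Krt25 (ENSMUSG00000035831, chromosome 11, 99315516 to 99322951) is a type I partner of Krt71. It had 0.0572, 2.74, 256, 212 and 1210 CPM in normal skin and 0.514, 1360, 0.173, 344 and 104 CPM in healthy wound. It was at 0 counts in all 5 diabetic libraries, so neither group overlapped with diabetic wound. The normal skin mean was at least 8950-fold higher than a floor of 3 counts over the diabetic group (adjusted p = 0.0254, edgeR), and the healthy wound mean at least 9740-fold higher (adjusted p = 0.0404). These calls held in 14 and 6 of the 15 fits that left out 1 library.

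Krt27, another type I keratin of the sheath, kept some diabetic counts. It had 0.172, 4.14, 197, 78.0 and 534 CPM in normal skin, 0.0572, 1190, 0.115, 189 and 46.6 CPM in healthy wound and 0.742, 0.191, 0.123, 0 and 0 CPM in diabetic wound. Diabetic wound 1 lay above the lowest library of each other group, so the groups overlapped. The log2 fold change was -9.47 ± 2.54 (SE, n = 5 per group, adjusted p = 0.0203, edgeR) against normal skin and -10.29 ± 2.60 (adjusted p = 0.03) against healthy wound. The calls held in 14 and 9 of the 15 fits that left out 1 library.

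Krt73, a type II keratin of the sheath cuticle, had 0, 2.49, 46.9, 72.0 and 368 CPM in normal skin and 0.286, 287, 0.115, 97.7 and 32.5 CPM in healthy wound, and no diabetic counts. Krt28, a type I sheath keratin, had 0.172, 0, 38.9, 34.8 and 167 CPM in normal skin and 0.457, 168, 0.403, 46.5 and 17.3 CPM in healthy wound, with 1 count in diabetic wound 1. The same 6 libraries were high for both genes, and every healthy wound library lay above every diabetic one, while 1 normal skin library was at 0 for each. Krt73 was at least 2600-fold and 2250-fold higher in normal skin and healthy wound than the diabetic floor (adjusted p = 0.0267 and 0.0443, edgeR), and these calls held in 13 and 5 of the 15 fits. Krt28 was 3860-fold higher in normal skin (counting interval 693 to 153000, adjusted p = 0.0125, edgeR) and 3770-fold higher in healthy wound (676 to 149000, adjusted p = 0.0258), with calls in 15 and 11 fits.

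The remaining sheath keratins were lower in level and nearer to the threshold. Krt26 had 8.71 ± 11.7 CPM in normal skin and 34.3 ± 69.0 CPM in healthy wound (SD, n = 5), with no diabetic counts; it was at least 232-fold higher in normal skin (adjusted p = 0.0519, edgeR, not called) and at least 923-fold higher in healthy wound (adjusted p = 0.0433, held in 5 of 15 such fits). Krt72 had 14.4 ± 18.5 and 51.3 ± 105 CPM, also with no diabetic counts, and was not called against either group (adjusted p = 0.0597 and 0.0525, edgeR).

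Krt35, the type I hair keratin that appears first near the matrix, behaved like the sheath keratins in level. It had 0.172, 1.21, 33.6, 37.6 and 238 CPM in normal skin and 0.229, 169, 0.0575, 54.7 and 15.8 CPM in healthy wound, and was at 0 counts in all 5 diabetic libraries. Neither group overlapped with diabetic wound. Krt35 fell in diabetic wound, with normal skin at least 1650-fold above the floor (adjusted p = 0.0262, edgeR) and healthy wound at least 1300-fold above it (adjusted p = 0.0452). The calls held in 13 and 5 of the 15 fits that left out 1 library, and limma-voom gave adjusted p = 0.21 and 0.306.

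The 9 cortex keratins were Krt31, Krt33a, Krt33b, Krt34 and Krt36 (type I) and Krt81, Krt83, Krt86 and Krt87 (type II). None was called in diabetic wound against normal skin, with adjusted p from 0.054 to 0.356, and 3 (Krt81, Krt86 and Krt87) were called lower than in healthy wound. Krt31, Krt33a, Krt33b and Krt34 were at 0 counts in all 5 diabetic libraries. Krt33a had 0, 0, 36.4, 3.88 and 52.3 CPM in normal skin and 0, 300, 0, 13.4 and 1.55 CPM in healthy wound. Its 0 values in 4 libraries outside diabetic wound made the groups overlap; its mean was at least 497-fold higher in normal skin (adjusted p = 0.0707, edgeR, not called) and at least 1700-fold higher in healthy wound (adjusted p = 0.064, not called).

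Krt87 had 0.229, 0, 35.3, 5.18 and 68.8 CPM in normal skin, 0.0572, 317, 0.0575, 17.1 and 1.72 CPM in healthy wound and 0.557, 0, 0, 0.248 and 0.119 CPM in diabetic wound. Krt81 had 0, 0.701, 22.3, 2.53 and 44.8 CPM in normal skin, 0.0572, 299, 0.173, 11.3 and 0.975 CPM in healthy wound and 0.186, 0, 0, 0 and 0.358 CPM in diabetic wound. Krt86 had 0.114, 0, 23.8, 2.08 and 26.7 CPM, then 0.229, 320, 0.288, 11.3 and 1.66 CPM, and 0, 0.382, 0.864, 0 and 0.358 CPM in diabetic wound. Healthy wound 2 was the highest library for each of the 3 genes, and diabetic values overlapped both other groups. Against healthy wound the log2 fold changes were -8.39 ± 2.45 for Krt87, -8.98 ± 2.50 for Krt81 and -7.61 ± 2.25 for Krt86 (SE; adjusted p = 0.045, 0.0389 and 0.0466, edgeR). Without healthy wound 2 they were -4.60, -4.72 and -3.36, and none of the 3 was called. Krt81, Krt83, Krt86 and Krt87 are close copies of each other, as are Krt33a and Krt33b, and reads could be split among them.

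Outside the sheath and cortex, Krt75, the keratin of the companion layer and medulla, fell in diabetic wound. It had 8.13, 23.6, 24, 24.1 and 201 CPM in normal skin, 10.9, 246, 5.41, 35 and 12.6 CPM in healthy wound and 2.23, 3.69, 5.92, 0 and 0.358 CPM in diabetic wound. Every normal skin library lay above every diabetic library, and healthy wound 3 lay below diabetic wound 3. Its log2 fold change was -4.46 ± 1.30 against normal skin (SE, adjusted p = 0.0285, edgeR) and -4.61 ± 1.31 against healthy wound (adjusted p = 0.0416). The calls held in 11 and 7 of the 15 fits that left out 1 library, and limma-voom gave adjusted p = 0.075 and 0.122. It was the most counted of the 70 genes in all 4 low libraries of healthy mice, with 44.1% and 47.4% of their member counts in normal skin 1 and 2 and 68.5% and 45.6% in healthy wound 1 and 3.

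The cuticle keratins were sparse. Krt82, a type II keratin of the shaft cuticle, had 0, 0.892, 4.09, 1.07 and 9.14 CPM in normal skin, 0, 34.4, 0.23, 7.36 and 0.0574 CPM in healthy wound and 2 counts in diabetic wound. It fell, 121-fold against normal skin (counting interval 33.3 to 1010, adjusted p = 0.0424, edgeR) and 340-fold against healthy wound (93.9 to 2820, adjusted p = 0.0346). These calls held in 5 and 9 of 15 fits that left out 1 library. Krt32, the type I keratin of the cuticle, had 1.83, 1.47, 6.40, 1.13 and 16.2 CPM, then 0.229, 35.5, 0.0575, 8.94 and 1.78 CPM, and 0.804, 1.34, 0, 0 and 0.358 CPM in diabetic wound, and was not called (adjusted p = 0.103 and 0.0793, edgeR). An antisense model lies over Krt32, and the library kit does not mark strand.

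Krt84, a hair keratin best known from the filiform papillae of the tongue, had 0.515, 2.68, 1.84, 4.61 and 4.26 CPM in normal skin, 1.77, 87.2, 2.07, 4.53 and 1.38 CPM in healthy wound and 1.55, 1.59, 0.864, 0.0619 and 0.239 CPM in diabetic wound. Healthy wound 2 stood far above the other 14 libraries, which overlapped between groups. The log2 fold change was -4.42 ± 1.23 against healthy wound (adjusted p = 0.0392, edgeR), and -1.65 ± 1.14 against normal skin (adjusted p = 0.315). Without healthy wound 2 the first of these was -1.47 and not called. The tongue and esophagus keratins Krt13 and Krt4 were at most 1.02 and 1.98 CPM in any library; Krt4 was not called in diabetic wound (adjusted p = 0.07 and 0.956, edgeR).

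The 49 Krtap genes lie in clusters on chromosome 11 (20 genes), 16 (21), 10 (3), 7 (3) and 1 (2). Of these, 10 passed the filter on low counts, and edgeR called none of them in any comparison. DESeq2 gave 6 of the 10 an adjusted p and called 5 lower in diabetic wound against each other group (Krtap7-1, Krtap8-1, Krtap11-1, Krtap13-1 and Krtap24-1), and limma-voom called none. The filter was also set to 10 counts in 2 libraries, so that all 49 were tested. EdgeR then called 1, Krtap4-1, lower in diabetic wound than in healthy wound (adjusted p = 0.0484). Of all 19384 genes tested with this filter, 3.36% were called lower in that comparison. The 49 Krtap genes summed to 6.58, 2.61, 405, 19.3 and 261 CPM in normal skin, 0.457, 4350, 2.42, 111 and 8.61 CPM in healthy wound and 16.6, 3.37, 1.73, 0.0619 and 0.418 CPM in diabetic wound. Healthy wound 2 exceeded every other library, and normal skin 3 exceeded normal skin 5 although it held fewer keratin counts. In diabetic wound 39 of the 49 were at 0 counts in all 5 libraries. By single library, 45, 44, 43, 48 and 45 of the 49 were at 0 in diabetic wound 1 to 5. In normal skin 1 and 2 there were 44 and 47 at 0, and in healthy wound 1 and 3 there were 47 each.

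On chromosome 16, Krtap8-1 (ENSMUSG00000059632) and Krtap7-1 (ENSMUSG00000056706), which encode glycine and tyrosine rich proteins, had the highest levels. Krtap8-1 had 0.114, 0, 40.9, 4.67 and 58.0 CPM in normal skin and 0, 409, 0, 14.3 and 0.402 CPM in healthy wound. Krtap7-1 had 0, 0, 40.8, 3.83 and 46.0 CPM in normal skin and 0, 375, 0, 13.1 and 0.516 CPM in healthy wound. Neither had a diabetic count, and both overlapped diabetic wound through libraries at 0. Krtap8-1 was at least 557-fold higher in normal skin and at least 2280-fold higher in healthy wound (adjusted p = 0.0759 and 0.0646, edgeR, neither called). Krtap6-5, of the same protein class, had 0, 0, 11, 0.731 and 2.62 CPM in normal skin and 0, 161, 0, 1.24 and 0.115 CPM in healthy wound. Krtap14 and Krtap15, also on chromosome 16, have gene spans that overlap on opposite strands; whether their exons share reads was not tested.

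On chromosome 11, the cluster of cysteine rich families Krtap1, Krtap2, Krtap3, Krtap4 and Krtap9, Krtap1-5 had 0, 0, 19.5, 0.113 and 8.35 CPM in normal skin, 0, 287, 0, 3.85 and 0.803 CPM in healthy wound and 0.371, 0.254, 0, 0 and 0 CPM in diabetic wound. Krtap4-1 had 0, 0, 13.1, 0 and 1.89 CPM in normal skin, 0, 202, 0, 1.87 and 0.172 CPM in healthy wound and 1 count in diabetic wound. For both genes normal skin 3 was above normal skin 5, the reverse of those libraries' order for the sheath keratins. The 7 Krtap4 genes are near copies, and reads could be split among them.

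The small clusters were detected chiefly in healthy wound 2 and normal skin 3. On chromosome 7, normal skin 3 held 37 counts of Krtap5-5, and healthy wound 2 and 4 held 283 and 6; Krtap5-4 had 16 counts in normal skin 3 and 214 in healthy wound 2. All other libraries were at 0 for both. On chromosome 10, Krtap10-4 had 3.86 and 0.122 CPM in normal skin 3 and 5, 19.1 and 0.622 CPM in healthy wound 2 and 4, and 1 count in diabetic wound 2. Both Krtap10 genes lie inside other gene models, among them Tspear. Krtap10-10 had 29 and 4 counts in normal skin 3 and 5 and 225, 27 and 3 counts in healthy wound 2, 4 and 5. On chromosome 1, Krtap28-10 had 1.73 and 2.92 CPM in normal skin 3 and 5 and 22.8, 1.75 and 0.459 CPM in healthy wound 2, 4 and 5. Krtap28-13 had 2.94 and 0.183 CPM in normal skin 3 and 5, 22.8, 1.64 and 0.172 CPM in healthy wound 2, 4 and 5, and 1 count in diabetic wound 5. Normal skin 5, with 69541 sheath keratin counts, thus held no Krtap5 count, whereas normal skin 3, with 17840, held 72 over the 3 Krtap5 genes.

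The balance of inner root sheath and cortex keratins was then read library by library. The difference of their mean log2 levels (7 sheath keratins minus 9 cortex keratins and Krt35, log2 CPM with a prior count of 2) was 0.01, 3.21, 1.95, 3.22 and 2.55 in normal skin and 0.70, 1.28, 0.42, 2.75 and 3.87 in healthy wound. In diabetic wound it was -0.24, -0.62, -0.46, -0.73 and -1.19, where both classes were near 0 counts. The sheath class was above the cortex class in every library of healthy mice, by no more than 0.01 in normal skin 1, and below it in every diabetic library. The group means were 2.19 ± 1.33, 1.81 ± 1.46 and -0.65 ± 0.36 (SD, n = 5). In the diabetic libraries the sheath class held 13, 3, 3, 0 and 0 counts and the cortex class 31, 57, 25, 28 and 167, and Krt83 alone held 239 of the latter. On summed CPM normal skin 1 was also below 0, at -0.42.

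Shares of counts could be read closely only in the 6 libraries with at least 1000 sheath keratin counts. In these shares Krt35 was counted with the 9 cortex keratins. It held 668 of 1154 such counts in normal skin 4 and 276 of 471 in healthy wound 5, but 2951 of 41480 in healthy wound 2. The lowest shares thus rest largely on Krt35. Cortex keratins, so counted, made up 18.7% of the sheath and cortex counts in normal skin 3 (95% Clopper-Pearson interval 18.2 to 19.2). They made up 8.61% in normal skin 4 (8.14 to 9.10) and 12.8% in normal skin 5 (12.5 to 13.0). In healthy wound they made up 27.7% in replicate 2 (27.5 to 28), 11.3% in replicate 4 (10.9 to 11.7) and 7.05% in replicate 5 (6.44 to 7.69). The intervals, which cover counting error only, did not overlap between any of the 6 libraries, and both skin groups held high and low shares. The Krtap share of all member counts was 23.7%, 2.40% and 4.88% in normal skin 3 to 5 and 32.6%, 7.12% and 2.11% in healthy wound 2, 4 and 5. Normal skin 3 therefore had a larger cortex share and a larger Krtap share than normal skin 5 although its summed member level was lower (1710 against 5350 CPM).

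**Figure D3:**
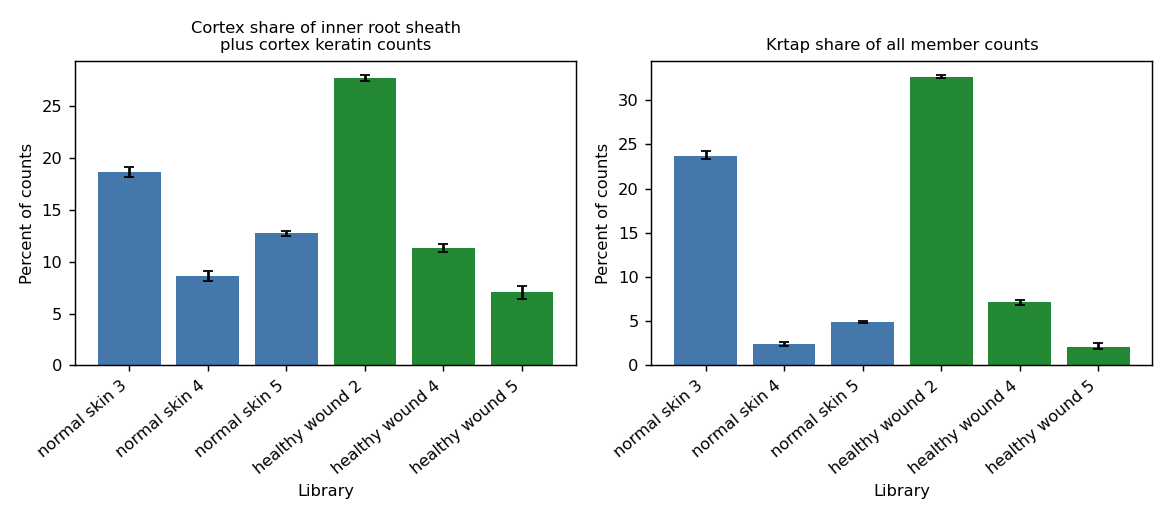
Share of cortex keratins (Krt35 included) in the sheath and cortex keratin counts (left) and share of Krtap genes in all member counts (right). Values are in percent, in the 6 libraries with at least 1000 sheath keratin counts. Bars are single libraries and whiskers are 95% Clopper-Pearson intervals for counting error. Healthy wound 2 and normal skin 3 are the highest in both panels, at 27.7% and 18.7% for cortex and at 32.6% and 23.7% for Krtap genes.

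Scaled by gene length, the Krtap sum was above the sheath sum in 2 of the 6 libraries, and above the sheath and cortex sums together in healthy wound 2 alone. TPM is a level scaled by length and computed from the deposited counts and gene lengths. In TPM the sheath keratins, the cortex keratins with Krt35 and the Krtap genes summed to 1600, 369 and 1660 in normal skin 3. In healthy wound 2 they summed to 9530, 3800 and 17900. In normal skin 5 they summed to 6180, 887 and 1090, and in healthy wound 4 to 1830, 229 and 430. On this per-length scale among the 6 libraries, the Krtap sum exceeded the sheath sum in normal skin 3 and healthy wound 2 and lay below it in normal skin 4 and 5 and healthy wound 4 and 5.

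Set against 1000 sheath keratin counts of the same library, the members separated into several patterns over these 6 libraries. Krt71 was nearly constant at 418 to 452, being itself the largest part of that sum. Krt25 (219 to 308) and Krt73 (45.6 to 104) were lowest in normal skin 3 and healthy wound 2, and Krt28 had 27.1 to 50.5, lowest in healthy wound 2. Krt35 went the same way, with 32.6 and 27.3 in those libraries against 44.2 to 56.2 in the other 4. Krt35 thus did not follow the 9 cortex keratins with which it was counted.

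The cortex keratins other than Krt36 and a pair of sheath keratins ran the other way. Krt33a had 35.4 and 48.4 in normal skin 3 and healthy wound 2, against 4.35 to 12.3 in the other 4 libraries. Krt34 spanned 1.80 in normal skin 4 to 40.7 in healthy wound 2, a 22.6-fold range, the widest of the cortex keratins. Among the sheath keratins, Krt72 spanned 2.94 to 38.5 (13.1-fold) and Krt26 spanned 3.27 to 25.4 (7.77-fold), both lowest in normal skin 4 and highest in healthy wound 2. Krt27 was highest in normal skin 3 (192) and healthy wound 2 (191) and spanned 1.70-fold. Krt36, of the cortex, had 1.87 to 4.94 (2.64-fold) and was highest in healthy wound 2. In normal skin 3 it had 2.19, below normal skin 4 (2.29), normal skin 5 (2.32) and healthy wound 5 (2.58). Krt75 had 23.3 to 47.4 (2.03-fold).

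The Krtap genes were read on the same scale. Krtap8-1 went from 1.13 in healthy wound 5 to 39.8 in normal skin 3 and 66.1 in healthy wound 2. Krtap11-1, a cysteine rich Krtap of chromosome 16, went from 3.22 to 30.0 (9.32-fold), a narrower range than that of Krt34. The 7 Krtap4 genes together had 0.49, 1.31, 4.02 and 5.76 in normal skin 4, normal skin 5, healthy wound 5 and healthy wound 4, and 48.8 and 130 in normal skin 3 and healthy wound 2. The 4 Krtap6 genes had 0.322 to 2.29 in the first 4 of these libraries and 28 and 76.6 in the other 2. In all, 52 of the 70 genes, and 39 of the 49 Krtap genes, were highest relative to the sheath keratins in healthy wound 2. The libraries were set in these ratios by their sheath counts and no test was made over them. All 70 genes reached the minimum of 10 counts in healthy wound 2, and some, such as Krtap5-4, only there and in normal skin 3. The set was thus chosen partly through healthy wound 2, and the numbers of genes highest there describe this set alone.

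**Figure D4:**
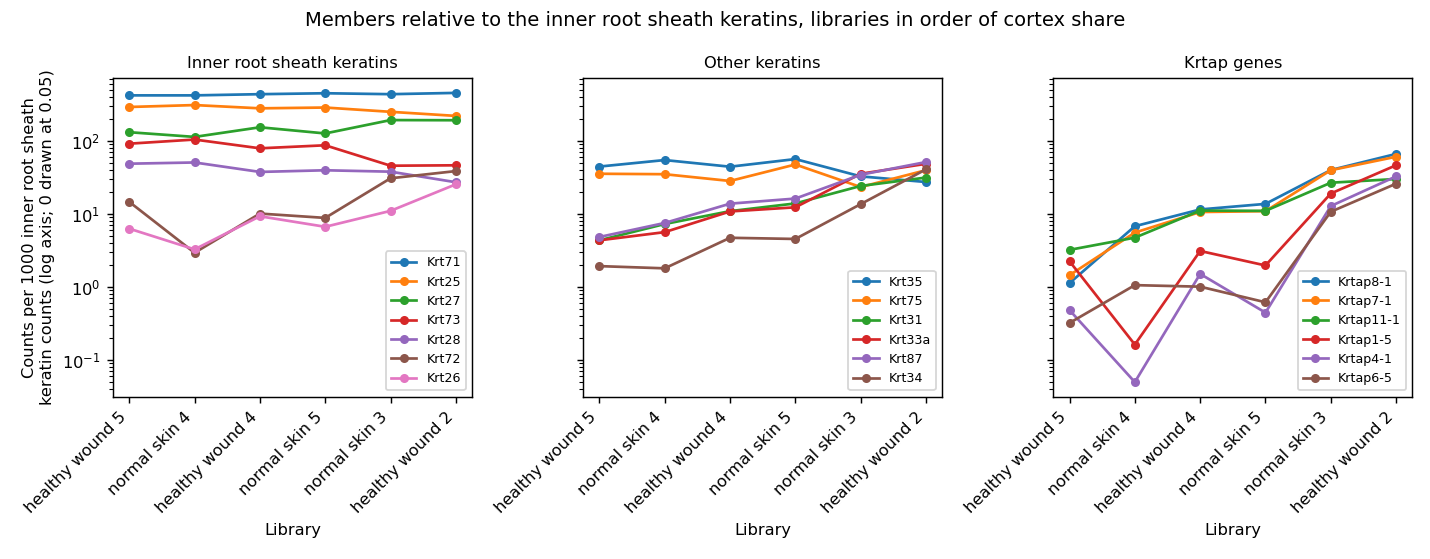
Counts of selected members per 1000 inner root sheath keratin counts of the same library (log axis, 0 drawn at 0.05) in the 6 libraries with at least 1000 such counts, ordered from left to right by cortex share. Krt71 is flat and Krt73 and Krt35 dip at the right end, while Krt72, Krt26, the other cortex keratins and the Krtap genes climb to their highest values in healthy wound 2.

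Over the 3 comparisons, 31 of the 70 genes (21 keratins and 10 Krtap genes) passed the filter on low counts, which favours genes high in at least some libraries, so counts over the 31 describe those genes only. In healthy wound against normal skin 0 of the 31 was called by edgeR (1, Krt84, at an unadjusted p under 0.05), and 0 by limma-voom. DESeq2 called 0 of the 25 to which it gave an adjusted p, which did not include Krt84. In this comparison 1.13% of all genes tested were called. The median log2 fold change of the 31 was 1.80, with 28 above 0, beside 0.005 over all genes tested. Without healthy wound 2 the median was -1.74 and none of the 31 was above 0. That direction rested on 1 library.

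In diabetic wound, 8 of the 31 were called lower than in normal skin (Krt71, Krt25, Krt27, Krt73, Krt28, Krt35, Krt75 and Krt82), beside 8.44% of all genes tested. The 13 called lower than in healthy wound were the same 8 with Krt26, Krt81, Krt84, Krt86 and Krt87, beside 4.02% of all genes tested. None was called higher. The median log2 fold changes of the 31 were -9.47 and -11.16, beside -0.006 and -0.016 over all genes tested. Of the 31 genes, 16 had no diabetic count, and their fitted values depend on the prior count. Those 16 passed the filter only through libraries of healthy mice, so the low medians were partly set by the choice of genes. The medians of the 31 are therefore not on a par with those over all genes. In fits of 2 groups alone, 6 and 5 members were tested and the medians were -2.93 and -4.29. In CPM, 4 of the 70 members (Krt25, Krt26, Krt35 and Krt75) had every diabetic library below every normal skin library. Likewise, 4 of the 70 (Krt25, Krt28, Krt35 and Krt73) had every diabetic library below every healthy wound library. Over all genes tested the shares were 5.58% and 4.86%, close to those of the 70 members.

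These counts depended on the method and on single libraries. DESeq2 called 21 and 23 of the 25 to which it gave an adjusted p, and limma-voom called 0 and 0. The low-count filter was rerun in each fit that left out 1 library, so 31 or 53 members were tested. The count against normal skin was 20 of 31 without healthy wound 2, 4 of 53 without diabetic wound 2 and 2 of 53 without diabetic wound 5. Against healthy wound it was 7, 2 and 2 of 31 without normal skin 3, healthy wound 2 and healthy wound 4. It was 5 and 4 of 53 without normal skin 4 and healthy wound 1. It was 1 and 6 of 53 without diabetic wound 1 and 4, and 0 of 53 without healthy wound 5, diabetic wound 2 or diabetic wound 5. With diabetic wound 4 and 5 both left out, a setting added after the data were seen, 0 were called in either comparison. Of the 63 members then tested, 62 and 63 were below 0. Calls over all genes moved as well. In either direction they were 3272 and 1567 in the main fit. With 1 library left out they ran from 2029 to 3824 against normal skin and from 230 to 2925 against healthy wound.

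Diabetic wound was not empty of these transcripts. Of the 70 genes, 48 were at 0 counts in all 5 diabetic libraries, which together held 80983742 counts, so that 3 counts correspond to 0.037 CPM over the group. The other 22 held 991 counts, of which Krtap3-2, Krt83 and Krt75 made 72.3%. By single library, 58, 58, 56, 65 and 57 of the 70 genes were at 0 in diabetic wound 1 to 5. The low libraries of healthy mice were near these, with 54 and 56 at 0 in normal skin 1 and 2 and 54 and 53 in healthy wound 1 and 3. Krtap3-2, a cysteine rich Krtap of chromosome 11, had 217, 44, 15, 1 and 4 counts in diabetic wound 1 to 5. Its levels were 5.21, 2.04, 10.1, 1.18 and 6.58 CPM in normal skin, 0.40, 122, 2.07, 3.39 and 0.287 CPM in healthy wound and 13.4, 2.80, 0.925, 0.0619 and 0.239 CPM in diabetic wound. The groups overlapped, and the log2 fold changes of -0.47 ± 1.43 and -2.784 ± 1.503 were not called (SE; adjusted p = 0.84 and 0.231, edgeR). Its neighbour Krtap3-3 had 39 counts in diabetic wound 1, with 1.14, 0, 7.90, 0.394 and 7.13 CPM in normal skin, 0, 102, 0.345, 3.96 and 0.172 CPM in healthy wound and 2.41, 0, 0.123, 0 and 0.0597 CPM in diabetic wound.

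Krt83, a type II cortex keratin, had 19, 48, 6, 14 and 152 counts in diabetic wound, or 1.18, 3.05, 0.37, 0.867 and 9.08 CPM, although Krt31, Krt33a, Krt33b and Krt34 had none there. In normal skin it had 0, 0, 27.6, 3.09 and 55.7 CPM and in healthy wound 0, 285, 0.0575, 13.9 and 1.38 CPM. Diabetic wound 5 was above 6 of the 10 libraries of healthy mice for Krt83, and its epidermal markers were among the lowest (1140 CPM). Krt83 made up 79.6% of the member counts of that library. The log2 fold changes of -2.50 ± 1.88 and -4.31 ± 2.02 were not called (SE; adjusted p = 0.356 and 0.172, edgeR).

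**Figure D5:**
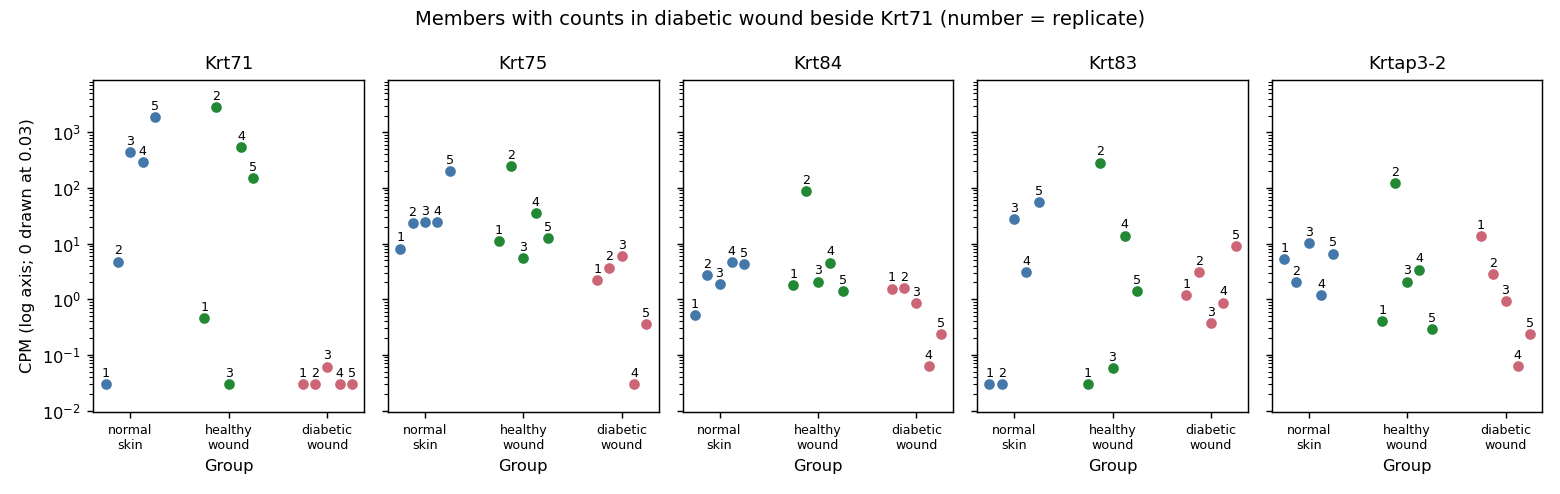
CPM of Krt71 and of the 4 members with the most counts in diabetic wound apart from it (Krt75, Krt84, Krt83 and Krtap3-2) in each library (log axis, points numbered by replicate, 0 drawn at 0.03). Krt71 has 1 diabetic point above 0, whereas the diabetic points of Krt83 and Krtap3-2 reach 9.08 and 13.4 CPM and overlap those of both other groups.

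Other genes of the follicle were read beside these. Of 10 hair structural genes tested apart from keratins and Krtap, 3 were called lower in diabetic wound than in normal skin. Against healthy wound 4 were called lower. In these comparisons 8.44% and 4.02% of all genes tested were called lower. Trichohyalin (Tchh), which hardens the inner root sheath and medulla, had 3.61, 19.7, 734, 300 and 2110 CPM in normal skin, 21.8, 4420, 7.48, 704 and 180 CPM in healthy wound and 4.27 to 9.75 CPM in diabetic wound, with log2 fold changes of -6.50 ± 1.77 and -7.27 ± 1.83 (adjusted p = 0.0217 and 0.0297, edgeR). Its high libraries were those of Krt71. Tchhl1, a relative of trichohyalin, fell against healthy wound (-6.49 ± 1.87, adjusted p = 0.0433, edgeR) and had -4.01 ± 1.74 against normal skin (adjusted p = 0.111).

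Of 18 follicle regulators, 7 were called lower in diabetic wound than in normal skin and 3 lower than in healthy wound. Over all genes tested the shares called lower were 8.44% and 4.02%. Not all regulators fell: Prdm1 had a log2 fold change of 0.12 against normal skin (not called). Shh and Bmp4 had 0.736 and 0.144 against healthy wound (not called). Msx1, a homeobox gene of the matrix, had log2 fold changes of -2.55 ± 0.52 and -1.40 ± 0.50 (adjusted p = 0.00553 and 0.0844, edgeR), and Wnt10b, a Wnt ligand of the growing follicle, -3.62 ± 0.77 and -2.49 ± 0.74 (adjusted p = 0.00692 and 0.048). Of 11 bulge and outer root sheath genes, 3 and 2 were called lower in these comparisons. Among them, Lhx2 had log2 fold changes of -4.93 ± 0.91 and -4.52 ± 0.90 (adjusted p = 0.00415 and 0.0161, edgeR), and Lgr5 -2.19 ± 0.68 and -2.73 ± 0.69 (adjusted p = 0.037 and 0.0303). Krt14 and Krt17 of the same list were above 0 against normal skin (0.241 and 0.196, not called). Among 8 cycling cell genes, Mki67 and Top2a had log2 fold changes of -1.20 ± 0.50 and -0.78 ± 0.51 in diabetic wound against normal skin (adjusted p = 0.0998 and 0.289, edgeR; unadjusted p = 0.0294 and 0.147), and no gene of this list was called in any comparison.

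Pigment cell genes did not rank the libraries as the hair keratins did. The summed level of 8 melanocyte genes was 385 CPM in normal skin 5 and 13.3 CPM in healthy wound 2, the library with the most hair keratin counts, against 30.6 CPM in normal skin 3 and 99.9 CPM in healthy wound 4. In diabetic wound it was 1.61 to 9.81 CPM. Of 7 tested, 6 were called lower than in normal skin and 1 lower than in healthy wound, beside 8.44% and 4.02% of all genes. Dct and Slc45a2 had log2 fold changes of -4.91 ± 1.05 and -6.99 ± 1.49 against normal skin (adjusted p = 0.00731 and 0.00723, edgeR).

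Markers of other tissue components moved with some of these libraries, and their part in the hair keratin results was not tested. Summed levels of the 7 epidermal markers between follicles ranged over 8170 to 40200 CPM in normal skin. The range was 2630 to 17500 CPM for healthy wound and 496 to 12900 CPM for diabetic wound, with none of the 7 at 0 in any library. Healthy wound 2, the highest in hair keratins, had the lowest of the 10 values of healthy mice. In the 3 comparisons 1, 1 and 0 of these genes were called, Krt77 lower in healthy wound (-4.10 ± 0.88, adjusted p = 0.0397, edgeR) and Krt10 lower in diabetic wound than in normal skin (-2.45 ± 0.82, adjusted p = 0.0492). Muscle genes (6, none called by edgeR; Atp2a1 and Mylpf had unadjusted p = 0.00909 and 0.0134 and adjusted p = 0.143 and 0.171 in healthy wound against normal skin) had summed levels of 2710 to 20900 CPM in normal skin, and of 1200 to 9110 and 1360 to 17700 CPM in the healthy and diabetic wounds. Of 5 adipocyte genes, 0, 2 and 2 were called lower in the 3 comparisons, Lep and Plin1 in both diabetic comparisons. Fabp4 had positive log2 fold changes in these 2 comparisons (0.597 ± 0.403 and 0.772 ± 0.404, adjusted p = 0.304 and 0.218, edgeR). Adipoq had -1.11 and 0.071, and Cidec -1.27 and -0.205, none of them called. The 5 genes summed to 637 to 1270 CPM for uninjured libraries, 268 to 770 for healthy wounds and 269 to 1930 for diabetic wounds. Diabetic wound 4 held the highest sum of the 15 libraries. Of 6 neutrophil genes, 5, 6 and 1 were called higher; Mmp8 was higher in all 3, and S100a9 in both wound groups against normal skin.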

How the data were processed

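The authors deposited whole-number read counts per gene model with gene lengths; mRNA was selected with poly-T beads and the library kit named keeps no strand mark, per the labels' protocols. No source used here names the aligner, the counting program or the genome build. Diabetic columns, numbered 5 to 9 in the table, were taken as replicates 1 to 5. Members, layers, gene lists and tests were chosen with earlier results of these data known. Layers follow textbook knowledge and are least certain for Krt28, Krt36 and Krt87. The sheath and cortex difference was also computed without these genes, and no group mean moved by as much as the SD of its group.

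Counts were tested with edgeR 4.0.16 in R 4.3.3 (TMM scaling, filterByExpr, robust quasi-likelihood F-test) in 1 fit over 3 groups with 12 residual degrees of freedom, adjusted by Benjamini-Hochberg over 17122 genes. SE is the log2 fold change divided by the root of F. CPM uses library totals; log2 CPM uses TMM and a prior count of 2. A group at 0 counts was set to a floor of 3 counts to bound a fold, and a group at 1 to 3 counts has its ratio with a 95% interval; both cover counting error only. Members of a group differed by far more than counting noise (lowest chi-square per degree of freedom 36.12), so no library was counted as a repeat. The procedure was tested on simulated data.

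Values by library are given for 27 members: the 2 highest keratins of each layer, the 2 highest Krtap genes of each chromosome and the 6 smallest p of each comparison, and for each other list the 2 genes with the smallest p are named. Krt83, Krt26 and Krt72, the Krtap families, Krt13 and the genes at 0 were described after their values were seen. Alternatives were RLE, upper-quartile and library-total scaling, 3 other low-count filters, DESeq2 1.42.0, limma-voom (limma 3.58.1), fits of 2 groups only, a block by replicate number and leaving out each library.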

Additional observations from a re-analysis of the deposited data

Results flagged for a closer look

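The per-library log2 CPM of the 27 members described library by library and 4 class measures were tested for a library far from the other 4 of its group by Dixon's ratio. Of 93 groups tested, 14 were picked out. A group with counts in 1 library alone is always picked out by this ratio, and a group at 0 throughout never is. No rate by chance can therefore be set beside the 14. Values below are log2 CPM with a prior count of 2, on which 0 counts is about -3.08.

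In healthy wound 2, Krt84 was 6.39 (next highest 2.20), Krtap5-5 was 3.98 and Krtap5-4 was 3.58, each far above the other healthy wound libraries. In normal skin 3, Krtap28-13 was 1.59, Krtap10-4 was 1.97, Krtap5-5 was 1.15 and Krtap5-4 was 0.03, all far above the other normal skin libraries, including normal skin 5, which had more hair keratin counts.

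In diabetic wound, Krtap3-3 was 1.39 in replicate 1 on 39 counts. The mean log2 level of the cortex keratins was -1.88 in replicate 5, with the nearest library at -2.26. The other 5 rest on 1 count in an otherwise empty group: Krt71 at -2.47 and Krtap4-1 at -2.47 in replicate 3, Krtap28-13 at -2.48 in replicate 5, Krtap10-4 at -2.45 in replicate 2 and Krt28 at -2.45 in replicate 1.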

How the results depend on the processing

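Scaling by RLE, upper quartile or library totals left the counts of members called at 0, 8 and 13 in healthy wound against normal skin, diabetic wound against normal skin and diabetic wound against healthy wound. With all 70 members tested (10 counts in 2 libraries) they were 0, 8 and 13, where in the last Krt86 was lost (adjusted p = 0.0504, edgeR) and Krtap4-1 gained (0.0484). The last 2 counts were 2 and 0 with no low-count filter, 21 and 23 by DESeq2 (of 25 with an adjusted p), 0 and 0 by limma-voom, 2 and 0 in fits of 2 groups alone, where 6 and 5 members were tested, and 0 and 0 with diabetic wound 4 and 5 both left out. With 1 library left out, where 31 or 53 members were tested, they ran from 2 to 20 and from 0 to 17, and the first from 0 to 0. Calls over all genes then ran from 2029 to 3824 and from 230 to 2925, and in the first comparison from 3 to 392. Deviations of same-numbered libraries had r from -0.21 to 0.238 over 15 pairs. The 4 above 0.1 were all among the 5 pairs of normal skin with healthy wound, whose other pair had -0.054; 2 libraries were nearest their own number. The numbers were not taken to pair the samples, and with the replicate block the counts were 5 and 0. The cause of these shifts was not tested.

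The mean difference of sheath and cortex keratins in diabetic wound moved from -0.65 to -2.32 on summed CPM and -1.03 with a prior count of 0.5; with 1 library left out it ran from 1.93 to 2.73 in normal skin, 1.29 to 2.15 in healthy wound and -0.75 to -0.51 in diabetic wound.

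In healthy wound against normal skin, where no member was called, log2 fold changes changed sign. By limma-voom they were -0.35 for Krt75, -0.22 for Krt87, -0.18 for Krt33a, -0.95 for Krt32, -0.53 for Krt82, -0.74 for Krt71, -0.38 for Krt25, -1.02 for Krtap8-1, -0.41 for Krtap7-1, -0.56 for Krtap3-2, -0.063 for Krtap3-3, 0.72 for Krt28 and -1.21 for Krt27. With the replicate block they were -0.15 for Krt75, -0.90 for Krt87, -1.14 for Krt33a, -0.50 for Krt32, -0.15 for Krt71, -0.46 for Krt25, -1.96 for Krtap8-1, -1.47 for Krtap7-1, -0.96 for Krtap6-5 and -0.54 for Krt27. Krt28 was 0.005 with no filter and 0.014 with a stricter one. With 1 library left out, the log2 fold changes ran from -1.76 to 1.59 for Krt75, -2.16 to 2.70 for Krt87, -2.27 to 2.62 for Krt33a, -0.93 to 1.75 for Krt32, -0.63 to 2.44 for Krt82, -1.56 to 1.90 for Krt71, -1.52 to 1.60 for Krt25, -2.22 to 4.86 for Krtap1-5, -2.46 to 2.87 for Krtap8-1, -2.38 to 2.78 for Krtap7-1, -1.75 to 1.39 for Krt35, -0.18 to 3.09 for Krt84, -3.02 to 5.31 for Krtap6-5, -1.70 to 2.76 for Krtap3-2, -1.60 to 3.34 for Krt86, -1.53 to 3.34 for Krtap3-3, -1.51 to 1.32 for Krt28, -1.41 to 2.01 for Krt27, -1.52 to 1.45 for Krt73 and -2.12 to 3.26 for Krt81. Krtap3-2 changed sign in diabetic wound, from -4.62 to 1.23 against healthy wound, and to 0.25 against normal skin with diabetic wound 4 and 5 both left out.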

Other observations

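Some gene models with a hair keratin or Krtap name were outside the set by biotype or by the count minimum, and their counts are given as values. Krt74, annotated as a transcribed unitary pseudogene, had 13, 6 and 49 counts in normal skin 3 to 5, 81, 18 and 2 counts in healthy wound 2, 4 and 5, and 1 count in diabetic wound 2. Krtap19-9a, annotated as a processed pseudogene, had 22 counts in normal skin 3 and 130 in healthy wound 2 and none elsewhere. Just above the count minimum were Krtap9-5 and Krtap31-1, with 23 and 41 counts in all libraries. Just below it was Krtap20-2, with 272 of its 274 counts in healthy wound 2.

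Crnn, a fused-type S100 protein gene known from esophagus and also listed here with the hair structural genes, had 15.3, 5.57 and 44.2 CPM in normal skin 3 to 5 and 84.7, 16.8 and 3.67 CPM in healthy wound 2, 4 and 5, the 6 libraries high in Krt71, and at most 0.74 CPM elsewhere. It was called lower in diabetic wound against both groups (log2 fold change -6.01 ± 1.97 and -6.73 ± 2.01, adjusted p = 0.045 and 0.0485, edgeR).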
